A study of Homo sapiens with 4 samples.

Results

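The 43 genes described here encode enzymes that add methyl groups to histone lysines, enzymes that remove them, and subunits of the Polycomb complexes, all on autosomes. They were chosen by name, with earlier results of these data known. Of these genes, 39 had a probe set of their own among the 18377 genes analysed. BMI1 shared its probe set with a second symbol, and BMI1, ASH1L, RNF2 and CBX8 were not analysed here. Their transcripts were measured on whole-transcript microarrays in 4 cell lines of human precursor B-cell acute lymphoblastic leukaemia (ALL), 1 array for each. Of these, RS4;11 and SEM have the chromosome translocation t(4;11), which rearranges KMT2A (MLL), a further member of the H3 lysine 4 methyltransferase family. NALM6 and REH lack this translocation and form the comparison group. All 4 lines were grown untreated to sub-confluence in RPMI medium with 10% fetal bovine serum. The replicate is a cell line, so that every other difference between these leukaemias enters the contrast, and in bulk RNA fewer expressing cells and less RNA per cell cannot be told apart.

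Methylation of histone H3 on lysine 4 (H3K4) marks active promoters and enhancers, and methylation on lysine 36 (H3K36) marks transcribed gene bodies. Methylation on lysine 9 (H3K9) marks silent heterochromatin, and on lysine 27 (H3K27) it marks genes held silent by Polycomb. Polycomb repressive complex 2 (PRC2) writes the H3K27 mark, Polycomb repressive complex 1 (PRC1) binds it and ubiquitinates histone H2A, and the PR-DUB complex with ASXL subunits removes that ubiquitin. The KMT2A fusion proteins of leukaemia lose the methyltransferase domain of KMT2A, and such leukaemias are known to depend on other chromatin regulators, the demethylase KDM1A among them.

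Values are log2 expression values processed by the submitters, and a difference is the mean of the translocation lines minus that of the other lines. The medians over all probe sets lay between 6.40 and 6.46 on the 4 arrays. Of the 10 precursor B cell markers listed, 8 were measured and 6 lay above the median of all gene values (6.75) in every line. VPREB1 at 5.51 in REH and CD24 at 6.33 in SEM lay below it. All 7 T cell, all 3 measured erythroid and all 6 stromal markers lay below that median in every line, as did 6 of 8 myeloid markers, with LYZ at 5.80 to 9.65 and MPO at 7.57 in REH as the exceptions. The log2 of the summed level of 18 proliferation genes differed little between lines, from 15.31 to 15.34.

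No member passed limma's threshold (adjusted p under 0.05 over all genes), which 0.0218% of the 18377 genes passed. At an unadjusted p under 0.05 there were 4 members lower in the translocation lines (KDM5B, KDM1A, EZH1 and KDM1B) and 2 higher (KDM7A and EED). The shares were 10.3% and 5.13% of the members, against 4.79% and 4.6% of all genes. Among the genes above the median level they were 7.72% and 7.01%. That name stands here for genes that reach the median of all gene values (6.75) in at least 1 line. All 39 members belonged to this set, KDM5B only through NALM6 and REH. Leaving out a line left 1 line in its group, assumed to vary like the other group. Without RS4;11 these counts were then 2 and 0, and without NALM6 they were 8 and 3, while the share of all genes at this p moved from 9.39% to 8.48% and 14.1%. Without SEM or REH 1 was higher, with 6.82% and 10.1% of all genes at this p. The groups did not overlap in 13 members that were lower and 6 that were higher in the translocation lines, 33.3% and 15.4%, with a background of 19.8% and 23.0% over all genes. Among genes above the median level that background was 23.2% and 23.6%.

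A gap of at least 2-fold (1 on the log2 scale) between the groups was found in 1 member, KDM5B, which was lower in the translocation lines, as in 0.876% of all genes. In 0 members was such a gap found in the other direction, against 0.963% of all genes. The median difference over the members was -0.02, beside 0.01 over all genes. For 26 of the 39 members the 95% interval of the difference lay wholly within 2-fold (66.7%, against 70.4% of all genes and 55.1% of those above the median level), and for the remaining 13 a 2-fold difference in at least 1 direction lay inside the interval or was exceeded.

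**Figure D1:**
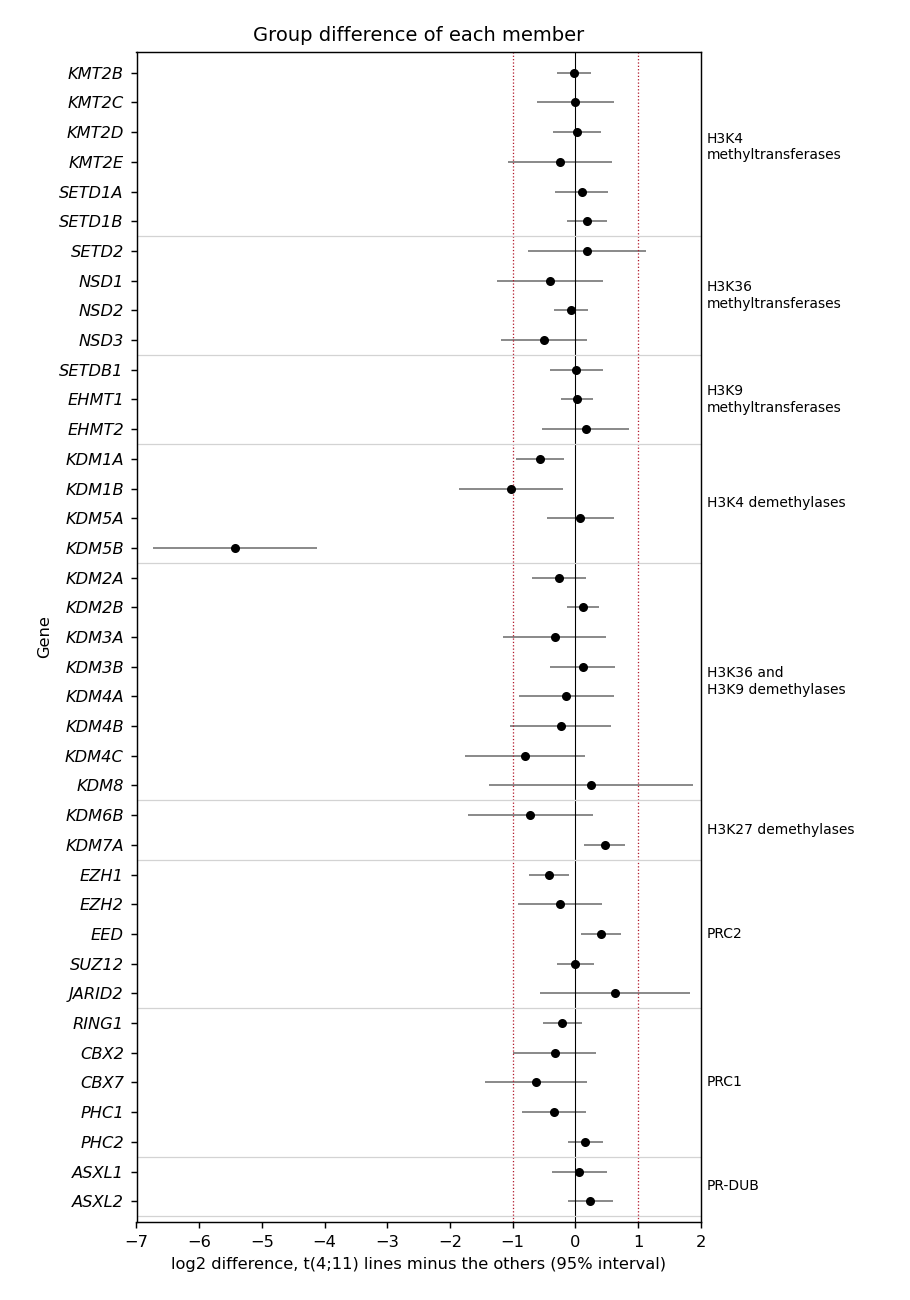
Difference of each member between the translocation lines (n = 2) and the others (n = 2) on the log2 scale, by role; points are limma estimates, bars their 95% intervals, and dotted lines mark 2-fold. KDM5B, at -5.43, lies apart from the other members, whose estimates run from -1.03 (KDM1B) to 0.63 (JARID2).

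The enzymes that remove H3K4 methylation held the widest contrast among the roles. KDM5B, a JmjC-domain demethylase of di- and trimethylated H3K4, was at 5.88 in RS4;11 and 4.91 in SEM, against 10.56 in NALM6 and 11.08 in REH. Both translocation lines were low and both other lines high, with 4.68 between the nearest values. The group means were 5.39 ± 0.69 (SD, n = 2) and 10.82 ± 0.37 (SD, n = 2), a difference of -5.43 (SE 0.43, 95% interval -6.73 to -4.12), or 43.0-fold. In size it ranked 15 of 18377 genes, but its adjusted p was 0.168 (limma, Benjamini-Hochberg). In SEM 22.4% and in RS4;11 43.3% of all probe sets lay below KDM5B, and in NALM6 and REH 89.9% and 93.4% did. The T cell markers, low in every line, had a median of 4.93 in SEM, where KDM5B at 4.91 was not set apart from background. In RS4;11 KDM5B at 5.88 lay above all 7 of them, the highest being CD2 at 5.33. It lay below the highest stromal marker there, COL1A1 at 6.14, and below the median of all gene values (6.75). The fold and the rank therefore describe the processed values, in which a fold is compressed near the low end of the array. Leaving out each line in turn gave differences from -5.91 to -4.94.

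KDM1A (LSD1) and KDM1B (LSD2) are flavin-dependent demethylases of mono- and dimethylated H3K4. KDM1A was at 10.57 in RS4;11 and 10.82 in SEM, against 11.25 in NALM6 and 11.28 in REH. KDM1B was at 9.22, 8.93, 10.42 and 9.80 in the same order. In both genes both translocation lines were below both others, with gaps of 0.43 for KDM1A and 0.58 for KDM1B. The differences were -0.57 for KDM1A (SE 0.13, adjusted p = 0.421) and -1.03 for KDM1B (SE 0.27, adjusted p = 0.473), which limma did not call. KDM5A, the closest paralogue of KDM5B among the members, was at 9.69 in RS4;11 and 9.48 in SEM, against 9.68 in NALM6 and 9.33 in REH. Its groups overlapped, and its difference was 0.08 (SE 0.18, 95% interval -0.46 to 0.62), a value whose sign turned without RS4;11 (-0.03) or REH (-0.10). In this role 3 of 4 members were lower, as were 47.1% of all genes, with a median of -0.80 beside 0.01. At an unadjusted p under 0.05 there were 3, all lower, beside 4.79% of all genes and 7.72% of those above the median level, and 0 passed over all genes.

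**Figure D2:**
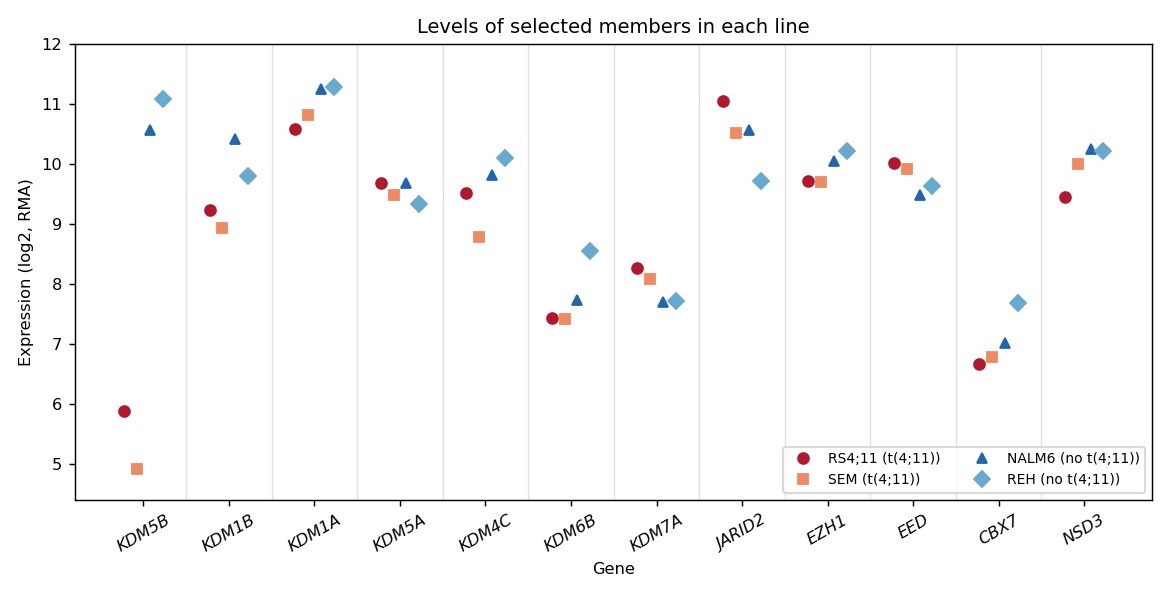
Log2 expression (vertical axis) of 12 members in each line, 1 point per array, with the translocation lines in red and orange and the others in blues. KDM5B is at 4.91 to 5.88 in the translocation lines and 10.56 to 11.08 in the others, while the lines lie within 1.48 of each other in every other gene drawn.

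The promoters of these 4 demethylase genes are shown because the differences of 3 of them run the same way. Each is the 250 bases before the annotated start of the gene in RefSeq (GRCh38.p14), 5′ to 3′ on the gene's strand, with CG dinucleotides in capitals.
KDM5B promoter, chr1:202808422-202808671 (minus strand): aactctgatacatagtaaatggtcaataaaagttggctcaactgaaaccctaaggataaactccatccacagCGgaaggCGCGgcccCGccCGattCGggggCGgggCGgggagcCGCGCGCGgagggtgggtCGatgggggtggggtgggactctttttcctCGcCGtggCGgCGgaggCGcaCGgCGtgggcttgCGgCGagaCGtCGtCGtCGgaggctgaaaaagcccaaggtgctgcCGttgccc
KDM1A promoter, chr1:23019218-23019467 (plus strand): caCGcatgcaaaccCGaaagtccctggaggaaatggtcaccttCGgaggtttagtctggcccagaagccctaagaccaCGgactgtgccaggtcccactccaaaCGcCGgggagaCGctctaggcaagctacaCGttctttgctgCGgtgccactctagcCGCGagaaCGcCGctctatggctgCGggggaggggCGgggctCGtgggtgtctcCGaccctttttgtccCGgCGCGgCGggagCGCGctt
KDM1B promoter, chr6:18155172-18155421 (plus strand): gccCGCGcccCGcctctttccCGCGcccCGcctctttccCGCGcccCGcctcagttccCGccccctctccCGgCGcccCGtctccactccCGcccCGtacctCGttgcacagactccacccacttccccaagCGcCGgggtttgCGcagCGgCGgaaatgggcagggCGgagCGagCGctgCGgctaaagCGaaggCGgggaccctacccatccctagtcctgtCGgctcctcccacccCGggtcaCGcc
KDM5A promoter, chr12:389321-389570 (minus strand): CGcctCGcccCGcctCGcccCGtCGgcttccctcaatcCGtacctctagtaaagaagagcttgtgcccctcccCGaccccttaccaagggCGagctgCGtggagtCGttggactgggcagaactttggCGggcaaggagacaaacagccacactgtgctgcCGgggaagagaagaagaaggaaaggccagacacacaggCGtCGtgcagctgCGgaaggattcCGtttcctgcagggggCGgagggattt
The windows held 27 CG dinucleotides in KDM5B, 23 in KDM1A, 30 in KDM1B and 18 in KDM5A. The median was 23 over the 36 members matched in the RefSeq promoter table, 18 over 14210 promoters of genes analysed here and 11 over all 35116 promoters. All 4 windows held the GC box GGGCGG on either strand, which 28 of 36 members (77.8%), 57.5% of promoters of genes analysed and 42.6% of all promoters held. The E-box CACGTG was in 0 of these 4 windows, in 7 of the 36 member windows (19.4%), in 7.86% of promoters of genes analysed and in 6.34% of all promoters. The sequence TGACAG, which MEIS and TGIF homeodomain proteins bind, was on either strand in 0 of the 4, in 3 of 36 (8.33%), in 11.9% of promoters of genes analysed and in 13.0% of all promoters. The ETS-type sequence CCGGAAGT was on either strand in 0 of the 4, in 0 of 36, in 5.23% of promoters of genes analysed and in 3.42% of all promoters. The members' windows had a median GC content of 67.2% against 62.8% over the promoters of genes analysed.

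The genes next to KDM5B on chromosome 1 did not show a difference of its size. Among the 5 measured genes on each side, in RefSeq order, 0 showed a 2-fold gap in the same direction, and their median difference was -0.01. PPP1R12B and SYT2, the nearest on one side, had differences of -0.24 and -0.07, and MGAT4EP and RABIF on the other side had 0.01 and 0.39. KLHL12, an adaptor of a ubiquitin ligase, had the lowest at -0.53 (SE 0.19, adjusted p = 0.553). In KLHL12 and PPP1R12B both translocation lines were also below both others, by at least 0.24 and 0.06. LGR6, an R-spondin receptor gene, ran the other way, at 9.48 in RS4;11 and 8.29 in SEM, against 7.36 in NALM6 and 5.36 in REH (difference 2.52, SE 0.90, adjusted p = 0.562).

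**Figure D3:**
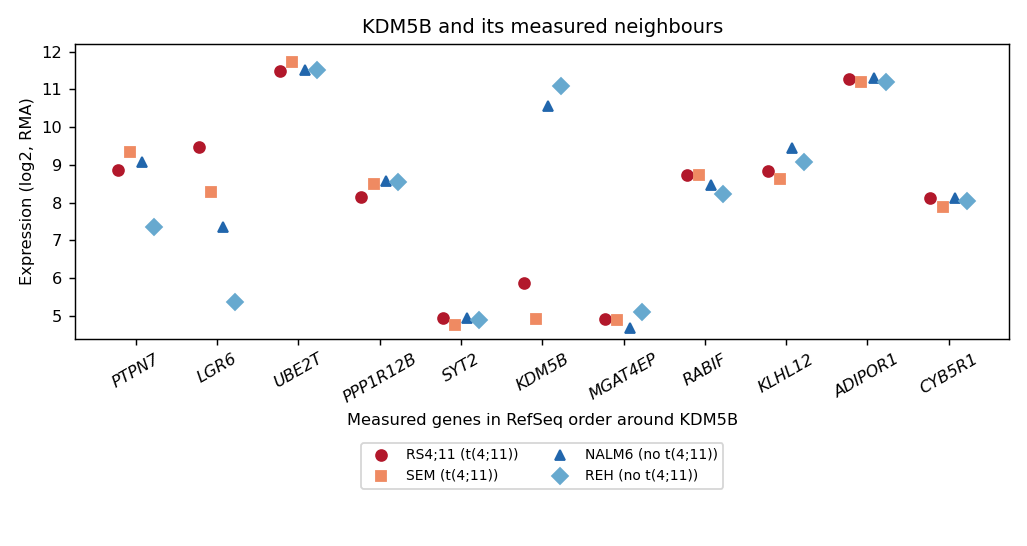
Log2 expression (vertical axis) of KDM5B and the 5 measured genes on each side of it in RefSeq order (horizontal axis, not to scale), 1 point per line. KDM5B alone shows a gap of over 2-fold with both translocation lines below both other lines, and LGR6 spans 5.36 to 9.48 in the opposite order.

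Among the demethylases of H3K36 and H3K9, 5 of 8 members had a difference below 0, with a median of -0.19, and 0 had an unadjusted p under 0.05. KDM4C, which acts on trimethylated H3K9 and H3K36, was at 9.52 in RS4;11 and 8.78 in SEM, against 9.82 in NALM6 and 10.10 in REH. SEM was the lowest and RS4;11 lay 0.30 below NALM6, so that the groups did not overlap (difference -0.80, SE 0.32, adjusted p = 0.596; -0.44 without SEM). KDM2A, an H3K36 demethylase with a CpG-binding zinc finger, was the other member of this role lower in both translocation lines, by at least 0.11 (difference -0.27). Its paralogue KDM2B, which recruits a variant PRC1 to CpG islands, was higher in both, by at least 0.09 (difference 0.12). KDM3A, KDM4A and KDM4B had differences of -0.33, -0.14 and -0.23 and KDM3B of 0.12, all with overlapping groups. KDM3A and KDM3B are H3K9 demethylases, and KDM4A and KDM4B are close relatives of KDM4C. KDM8, a JmjC-domain protein described as an H3K36 demethylase and also as a hydroxylase, was at 7.66 in RS4;11 and 7.63 in SEM, against 8.09 in NALM6 and 6.70 in REH. The lines without the translocation thus bracketed the others, and the difference of 0.25 (SE 0.54) was -0.13 in its dimmer second probe set and -0.44 without REH.

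The H3K27 demethylases ran in opposite directions. KDM6B (JMJD3), which removes the Polycomb mark, was at 7.43 in RS4;11 and 7.41 in SEM, against 7.72 in NALM6 and 8.55 in REH. The translocation lines lay 0.01 apart and below both other lines, and REH held most of the difference of -0.72 (SE 0.33, adjusted p = 0.64), which was -0.30 without REH. KDM7A, a demethylase of dimethylated H3K9 and H3K27, was at 8.26, 8.08, 7.69 and 7.71 in RS4;11, SEM, NALM6 and REH. Both translocation lines were higher by at least 0.37, and the difference was 0.47 (SE 0.11, adjusted p = 0.425). REH was highest in KDM6B and RS4;11 in KDM7A.

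Transcripts of the H3K4 writers varied little. In the 6 members of the H3K4 methyltransferase group the highest and lowest line differed by 0.08 (KMT2B) to 0.67 (KMT2E), with a median of 0.30. KMT2B, the closest relative of KMT2A, was at 7.99 in RS4;11 and 7.91 in SEM, against 7.98 in NALM6 and 7.97 in REH. Its difference was -0.02 (95% interval -0.29 to 0.24), and the sign turned when arrays were centred on their medians. KMT2C and KMT2D, the enhancer H3K4 monomethyltransferases, had differences of 0.0025 (95% interval -0.62 to 0.62) and 0.03 (95% interval -0.35 to 0.41), and the sign of KMT2C turned after repeated quantile normalization. SETD1A, which with SETD1B carries most H3K4 trimethylation, had 0.10 and overlapping groups. SETD1B was higher in both translocation lines, by at least 0.08, at 8.29 and 8.14 against 8.06 and 8.00 (difference 0.18, SE 0.10). KMT2E, a family member without known methyltransferase activity, had the largest value of this group, -0.24 (SE 0.28), at 11.67 in RS4;11 and 11.48 in SEM, against 11.49 in NALM6 and 12.15 in REH. REH alone was high there, and without REH the difference was 0.08.

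Among the H3K36 methyltransferases, NSD3 was at 9.45 in RS4;11 and 10.00 in SEM, against 10.24 in NALM6 and 10.21 in REH. RS4;11 was lowest, and both translocation lines lay below the others. The difference of -0.50 (SE 0.23, adjusted p = 0.635) was -0.23 without RS4;11. NSD2, an H3K36 dimethyltransferase recurrently altered in lymphoid cancers, was nearly level, at 9.95, 9.86, 9.99 and 9.97 in the same order (difference -0.07, 95% interval -0.34 to 0.20). NSD1 was at 9.67, 9.25, 10.13 and 9.58 (difference -0.40, SE 0.28, and -0.13 without NALM6), and its groups overlapped. SETD2, which adds the third methyl group to H3K36 behind RNA polymerase II, was at 11.29 in RS4;11 and 11.28 in SEM, against 11.49 in NALM6 and 10.70 in REH. The translocation lines were 0.01 apart while NALM6 and REH stood 0.78 apart on either side, so that the difference of 0.19 (SE 0.31) was -0.20 without REH. All 4 of these genes were highest in NALM6, as were 25.0% of all genes, though by 0.02 for NSD2 and 0.03 for NSD3.

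Of the H3K9 methyltransferases, EHMT1 (GLP) was the steadiest member, between 8.55 and 8.61 in the 4 lines (difference 0.03, 95% interval -0.23 to 0.28). Its partner EHMT2 (G9a) was at 9.31 in RS4;11 and 9.23 in SEM, against 9.38 in NALM6 and 8.83 in REH. REH was the low line, and the difference of 0.16 (SE 0.23) was -0.11 without it. EHMT2 had a second probe set with the same values on all arrays, which is no independent measurement. SETDB1, the H3K9 methyltransferase of KRAB zinc finger silencing, lay between 9.72 and 9.94 (difference 0.02, SE 0.14).

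**Figure D4:**
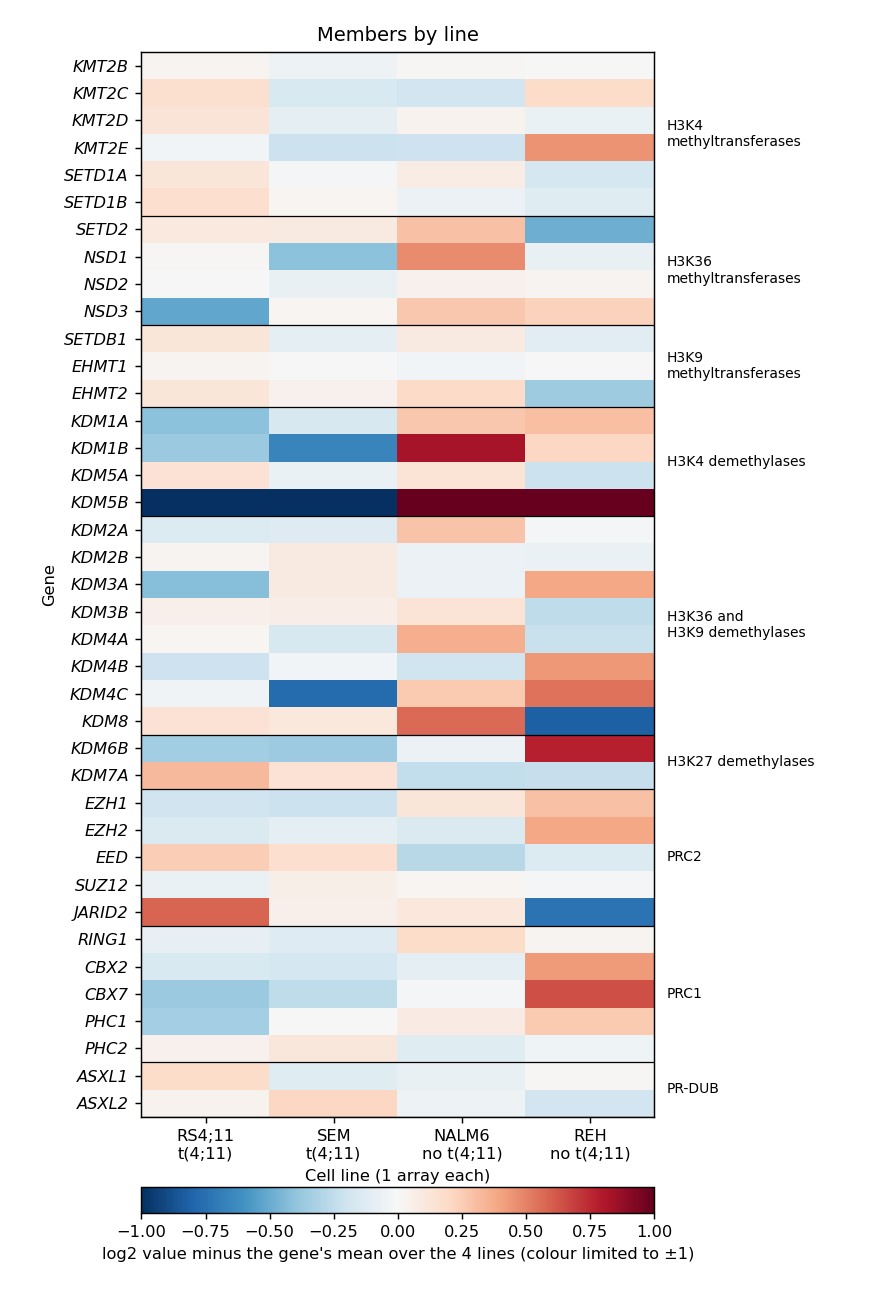
Heat map of the 39 members (rows, by role) in the 4 lines (columns, 1 array each), as log2 value minus the gene's mean over the lines, with colours limited to 1 either way. KDM5B exceeds the colour limit in every line, at 4.91 to 11.08, whereas SUZ12, EHMT1 and KMT2B are pale throughout.

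The PRC2 subunits did not move as a block. EZH2, the main H3K27 methyltransferase of dividing cells, was at 11.36 in RS4;11 and 11.40 in SEM, against 11.36 in NALM6 and 11.89 in REH. REH alone was higher, and the difference of -0.24 (SE 0.22) was 0.02 without it. EZH1, the paralogue of less proliferative cells, was at 9.72, 9.70, 10.04 and 10.21 in the same order. Both translocation lines lay at least 0.33 below the others (difference -0.42, SE 0.11, adjusted p = 0.458). EED, the subunit that binds methylated H3K27, ran the other way at 10.01, 9.92, 9.48 and 9.62, with the translocation lines at least 0.30 higher (difference 0.41, SE 0.11, adjusted p = 0.459). SUZ12, the scaffold subunit, lay between 11.98 and 12.10 in all lines (difference -0.0018, 95% interval -0.30 to 0.29), with a sign that turned when arrays were centred. JARID2, an accessory subunit that guides PRC2 to chromatin, was at 11.05 in RS4;11 and 10.51 in SEM, against 10.57 in NALM6 and 9.72 in REH. RS4;11 was high and REH low with SEM and NALM6 between them, and the difference of 0.63 (SE 0.40, adjusted p = 0.722) was 0.21 without REH.

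In PRC1, 4 of the 5 measured members were lower in both translocation lines and 1 was higher, beside 19.8% and 23.0% of all genes and 23.2% and 23.6% of those above the median level. None passed over all genes or had an unadjusted p under 0.05. CBX7, a chromodomain reader of trimethylated H3K27, was at 6.66 in RS4;11 and 6.78 in SEM, against 7.02 in NALM6 and 7.67 in REH. REH was highest, and the difference of -0.63 (SE 0.27, adjusted p = 0.622) was -0.30 without it. CBX2, another such reader, was likewise highest in REH, at 8.60 against 8.00 to 8.08 in the other lines (difference -0.33, SE 0.22, and -0.06 without REH). PHC1, a polyhomeotic subunit, had a difference of -0.34 and RING1, an E3 ligase of H2A, of -0.21, with gaps between the groups of 0.08 and 0.11. PHC2 was the member higher in both translocation lines, by 0.09 (difference 0.16). The median of the role was -0.33, beside 0.01 over all genes. BMI1, RNF2 and CBX8 of this role were not analysed. The 14 other PRC1 genes measured did not share this lean. Their groups did not overlap in 3 that were lower and 3 that were higher (21.4% each), with a median difference of -0.05. Of the PR-DUB subunits, ASXL2 was at 10.37 in RS4;11 and 10.54 in SEM, against 10.28 in NALM6 and 10.14 in REH, with the translocation lines at least 0.08 higher (difference 0.24, SE 0.12). ASXL1 had overlapping groups and a difference of 0.06 (SE 0.15).

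The lines could also be compared one by one, without a replicate check. In 0 members did 1 line stand at least 2-fold above or below each of the other 3. The shares of all genes with the line above were 0.707% for RS4;11, 1.64% for SEM, 1.19% for NALM6 and 2.19% for REH. With the line below they were 0.669%, 0.702%, 1.16% and 1.25%. Among genes above the median level the shares were 1.21%, 2.32%, 1.98% and 3.4% above, and 1.2%, 1.26%, 2.08% and 2.23% below. Each share covers 1 line and 1 direction, so the 0 members stand beside all of these shares together. The highest and lowest line differed by a median of 0.53 over the members, against 0.38 over all genes and 0.62 over genes above the median level. A range of at least 2-fold was found in 7 members (17.9%, against 19.3% of all genes and 30.7% of those above the median level), namely KDM5B, KDM1B, KDM8, JARID2, KDM4C, KDM6B and CBX7. A range of at least 4-fold was found in KDM5B alone, against 7.56% of all genes and 13.4% of those above the median level. Within the groups, RS4;11 and SEM were at least 2-fold apart in 0 members (6.0% of all genes and 9.66% of those above the median level), and NALM6 and REH in 1, KDM8 (8.62% and 14.1%).

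At about 1.5-fold (0.58 on the log2 scale), RS4;11 and SEM differed in 2 members (5.13%, against 12.5% of all genes and 19.4% of those above the median level), KDM5B and KDM4C, both higher in RS4;11. NALM6 and REH differed in 9 (23.1%, against 17.0% and 25.8%). JARID2, SETD2, KDM1B, KDM4A and KDM8 were higher in NALM6, and KDM6B, CBX7, KMT2E and KDM4B were higher in REH. SEM was the lowest line in 13 members (33.3%, against 24.5% of all genes) and the highest in 4 (10.3%, against 22.9%). REH was the highest in 13 (33.3%, against 25.0%) and the lowest in 12 (30.8%, against 33.7%). Among genes above the median level SEM was the lowest in 24.3% and the highest in 24.2%. There REH was the highest in 27.8% and the lowest in 32.6%. Each line thus led in some members and trailed in others.

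**Figure D5:**
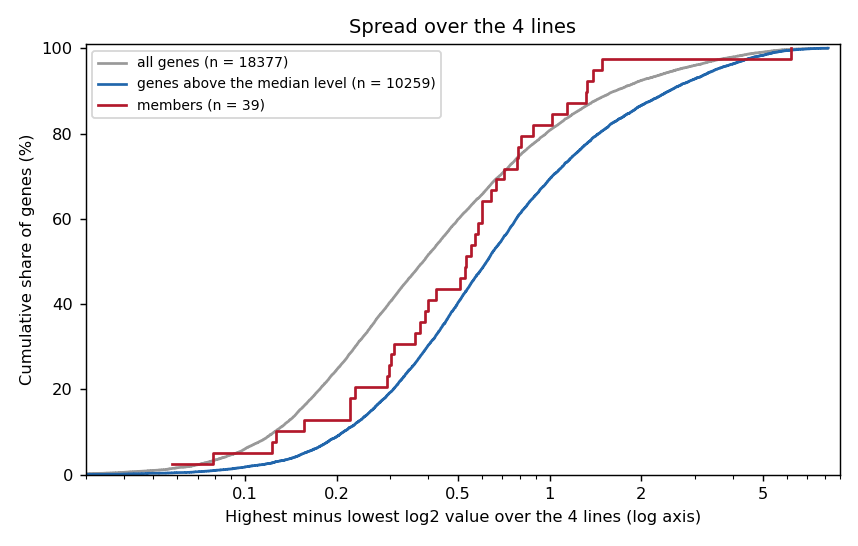
Cumulative share of genes (vertical axis, %) by the difference between the highest and lowest of the 4 lines (horizontal log axis, log2 units) for the 39 members, all 18377 genes and the 10259 genes above the median level. The members' median of 0.53 lies between those of the other curves (0.38 and 0.62), and 1 member, KDM5B, lies beyond 4-fold at 6.17.

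Further genes of these pathways were taken from 8 lists of other writers, other erasers and partner subunits, of which 78 of 80 genes were measured. Over all genes 0 passed limma's threshold. At an unadjusted p under 0.05 there were 6 lower (7.69%) and 2 higher (2.56%), beside 4.79% and 4.6% of all genes. A 2-fold gap between the groups was found in 0 of them in either direction, beside 0.876% and 0.963% of all genes. Their median difference was -0.05 and their median range over lines 0.52, close to the 0.53 of the members. In 23 of the 78 (29.5%) the groups did not overlap with the translocation lines lower, and in 11 (14.1%) with them higher. The shares of all genes were 19.8% and 23.0%. By list, the share lower was largest for PRC2 accessory subunits (4 of 6, with 0 higher). Next came H3K9 readers and partners (4 of 7, with 1 higher). It was smallest for other erasers (1 of 8, with 2 higher). The listed subunits of the KMT2 and SETD1 complexes had a median difference of -0.12, with 0 of 11 at an unadjusted p under 0.05. The partners of KDM1A had -0.08 with 1 of 8. Other PR-DUB genes had 0.03 with 2 of 5, both lower, and H3K9 readers and partners -0.05 with 1 of 7, lower. Other writers had -0.01 with 2 lower and 1 higher of 19, and other PRC1 genes -0.05 with 1 of 14, higher. PRC2 accessory subunits had -0.25 and other erasers 0.01, with 0 of 6 and 0 of 8. A gap of at least 4-fold between 1 line and each of the others was found in 2 genes. RIOX2, a JmjC-domain gene, stood at 4.50 in REH while the remaining lines held 8.70 to 8.88. CBX1, the gene of the heterochromatin protein HP1 beta that binds methylated H3K9, stood at 5.22 in NALM6 and at 8.54 to 8.76 elsewhere. Each of these lies in a single line of the comparison group and neither followed the translocation.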

How the data were processed

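RNA from 4 cell lines was read on 1 Affymetrix array each. The submitters' processing notes name RMA, which corrects background, normalizes quantiles and summarises probe sets, and Partek, with versions not given in the sources used here. Because the deposited table states no unit, its values of 3.44 to 14.3 were taken as log2 expression. RMA makes no detection call, and quantile normalization takes out differences in total signal between arrays. The number of arrays limits precision.

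Groups follow the labels. Of 32968 probe sets, 19310 named exactly 1 gene, and each of 18377 genes was represented by its probe set of highest mean. The groups were compared with limma 3.58.1 (lmFit and eBayes, R 4.3.3) over all genes, two-sided, and p-values were adjusted by Benjamini-Hochberg. An exact permutation test of 2 lines against 2 cannot go below p = 0.333. On simulated data with independent normal noise the fit recovered the mean planted change. That mean does not show what size of difference 2 lines against 2 can detect. Other steps used Python 3.11.15 with pandas 2.3.3, numpy 2.4.6 and matplotlib 3.10.9.

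The members and lists were chosen with earlier results of these data known. Every measured member is named. By rule, values by line are given for KDM5B and for the largest difference in each role, and for the other members they were chosen after being seen. Of the other pathway genes, those past the threshold, separated 2-fold between groups or 4-fold in 1 line are named. The alternatives were a second quantile normalization, median centring, averaged probe sets, no dim genes (those that never reach the median gene value), robust eBayes, an intensity trend, every probe set, other separation thresholds and omission of each line.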

Additional observations from a re-analysis of the deposited data

How the results depend on the processing

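No paired analysis was made, because the labels link no line of one group to a line of the other. The count of 0 members past the threshold held under every alternative tried. Without any 1 line 0 of all 18377 genes passed, so those fits say nothing about the members, and the adjusted p of KDM5B ranged from 0.0783 (median centring) to 0.322 (without SEM). The 4 lower members at an unadjusted p under 0.05 became 2 to 8 without each line in turn, and the 2 higher ones 0 to 3, or 1 without dim genes and 1 with an intensity trend. The 1 member with a 2-fold gap became 1 to 2 when a line was left out. KDM4C (without RS4;11), KDM6B (without NALM6) and KDM1B (without REH) then joined KDM5B. Leaving out a line can only keep or widen such a gap, so this count could not fall and is no check of KDM5B. The share of all genes under these omissions is not given. Members standing apart in 1 line numbered 1 in SEM after median centring and 1 in REH after repeated quantile normalization. At a threshold of 0.58 they numbered 2 in SEM, 1 in NALM6 and 4 in REH. No share of all genes is given for these settings, so these counts are not set against a background. RS4;11 and SEM were apart in 1 member after median centring and in 2 at a threshold of 0.58. NALM6 and REH were apart in 0 with the mean of the probe sets, in 9 at 0.58 and in 0 at 2.

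Signs turned only in members whose difference was at most 0.25 in size. Median centring gave 0.0014 for KMT2B and 0.023 for SUZ12, repeated quantile normalization -0.035 for KMT2C, and the second probe set -0.13 for KDM8. The causes were not tested, apart from fewer lines. Over the lines left out in turn, the differences of the members whose sign turned ranged as follows: KMT2B -0.062 to 0.016, KMT2C -0.19 to 0.19, KMT2D -0.083 to 0.14, KMT2E -0.57 to 0.084, SETD1A -0.028 to 0.23, SETD2 -0.20 to 0.58, SETDB1 -0.092 to 0.13, EHMT2 -0.11 to 0.44, KDM5A -0.096 to 0.25, KDM3B -0.078 to 0.31, KDM4A -0.43 to 0.15, KDM4B -0.55 to 0.079, KDM8 -0.44 to 0.94, EZH2 -0.51 to 0.021, SUZ12 -0.065 to 0.061, ASXL1 -0.087 to 0.21.

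The matching share of all genes is not given for the next counts, so they show nothing particular to the members. Of the 39 members, 16 turned sign when a line was left out and a further 15 kept it but shrank by over 1.5 times. Beside those given above, these were SETD1B to 0.11, KDM3A to -0.073 and PHC1 to -0.17 without RS4;11, NSD2 to -0.03 and ASXL2 to 0.15 without SEM, and EHMT1 to 0.012, KDM2A to -0.11 and RING1 to -0.13 without NALM6.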

Other observations

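PHC3, a polyhomeotic subunit of PRC1 that is not among the 43 genes named above, was read by several probe sets with different patterns; it was singled out after its values were seen. The brighter probe set gave log2 values of 11.12 in RS4;11 and 10.78 in SEM, against 10.88 in NALM6 and 11.25 in REH, a difference of -0.12 between the group means. A dimmer probe set gave 5.89 in RS4;11 and 5.77 in SEM, against 7.51 in NALM6 and 7.82 in REH, a difference of -1.83. In the dimmer set both translocation lines lay below both other lines by at least 1.62, and in the brighter set the groups overlapped. Which transcripts each probe set reads was not tested.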
